A study of Mus musculus with 6 samples.

Results

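The miR-29 family was described across the small RNA of 6 mouse hearts. Its members were taken by name: every sense entry of the count files for the hairpin genes Mir29a, Mir29b-1, Mir29b-2 and Mir29c, with both arms. This gave 8 of the 1102 file entries. They stand for 7 of 979 mature miRNAs, because Mir29b-1 and Mir29b-2 give the same miR-29b-3p, which was summed over both genes. The samples form 1 group of wild-type animals, all male, of the strain C57BL/6J and at an age of 18 weeks. Each heart gave 1 library, and the hearts are numbered 1 to 6 as in the labels. C57BL/6J is a common inbred laboratory strain. The tissue label names the whole heart, while the extraction protocol names the ventricular apex, so the region sampled is uncertain. No group carried a treatment or an altered allele, so no contrast between conditions exists and levels are described for the normal heart.

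A microRNA (miRNA) gene is transcribed into a hairpin, from which a short duplex is cut. One strand, from the 5p or the 3p arm, is usually loaded into an Argonaute protein and pairs through its seed with messenger RNAs to repress them, while the other is mostly degraded. miR-29 is known in the heart for repressing messages of the extracellular matrix, among them collagens, elastin and fibrillin, and for lower levels in the scarred border of an infarct, which is why it is called anti-fibrotic.

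The sequences of the 3p arms are shown first because they carry the family's shared seed (bases 2 to 8, in capitals). All are the RefSeq mature sequences on GRCm38.p6, written 5′ to 3′, and all 7 members were matched by name.
miR-29a-3p: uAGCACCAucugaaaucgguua
miR-29b-3p: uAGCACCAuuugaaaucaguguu
miR-29c-3p: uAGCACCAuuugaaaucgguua
The seed AGCACCA was held by these 3 miRNAs and by no other of the 1679 mature names in the RefSeq table. Counted from 1 at the 5′ end and over the 22 bases compared, miR-29c-3p and miR-29a-3p differ at 1 position, U10C. miR-29c-3p and miR-29b-3p differ at 3 positions, G18A, U21G and A22U. miR-29a-3p and miR-29b-3p differ at 4 positions, which add C10U to those 3. miR-29b-3p is 23 bases long and ends in AGUGUU, an ending described in human cells as a signal for nuclear import.

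The 5p arms, the strands less often retained, are shown because they tell all 4 genes apart and share no seed.
miR-29a-5p: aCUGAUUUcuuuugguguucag
miR-29b-1-5p: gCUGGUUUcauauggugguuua
miR-29b-2-5p: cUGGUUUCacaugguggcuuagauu
miR-29c-5p: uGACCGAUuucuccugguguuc
The seed of miR-29b-2-5p, UGGUUUC, is also held by miR-6338, which was not analysed here. The other 5p seeds were each held by 1 mature name in the table.

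The 4 genes lie as a pair of clusters. On GRCm38, on the minus strand of chromosome 6, miR-29a-3p lies at chr6:31062673-31062694 and miR-29a-5p at chr6:31062711-31062732, and 275 bases separate the Mir29a hairpin from that of Mir29b-1. miR-29b-3p of this cluster lies at chr6:31063025-31063047. The file window for miR-29b-1-5p is chr6:31063062-31063083, with both ends 5 bases downstream of those in RefSeq, chr6:31063067-31063088. Mir29a overlaps no other gene of the GENCODE M21 annotation, and the Mir29b-1 hairpin shares 2 bases with an exon of the lincRNA Gm27019 on the same strand.

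On the plus strand of chromosome 1, miR-29b-2-5p lies at chr1:195037052-195037074 in the files, with its 5′ end 2 bases later than in RefSeq. miR-29b-3p of this cluster lies at chr1:195037091-195037113, miR-29c-5p at chr1:195037562-195037583 and miR-29c-3p at chr1:195037600-195037621. The hairpins are 426 bases apart, and both lie within an exon of the noncoding gene A330023F24Rik on the same strand and opposite a UTR exon of Cd46, a complement regulator. Of 751 sense entries matched to RefSeq, 724 (96.4%) had the 5′ end given there and 10 (1.33%) were shifted by 5 bases or more, so the counts of miR-29b-1-5p come from an unusual window, and reads at its RefSeq position may be missing from them.

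The libraries held 3966169 to 6007322 counts. A library total of this size makes 10 reads worth 1.66 to 2.52 CPM, where CPM is the count scaled to 1000000 counts per library. A count of 0 would allow up to 3 counts, which is 0.499 to 0.756 CPM, and no member was at 0 in any heart. Marker miRNAs of muscle, fibroblasts, endothelium, red cells and leukocytes all had reads in every heart. The muscle markers summed to between 9.41% and 10.6% of a library, fibroblast markers to 1.81% to 2.51%, endothelial markers to 8.40% to 9.73%, erythroid markers to 0.218% to 0.569% and leukocyte markers to 0.203% to 0.283%. Most of each sum was 1 miRNA in all lists but the leukocyte one. Of the fibroblast sum, miR-10b-5p held 75.3% to 85.8%. The other fibroblast markers, miR-199a-3p, miR-199a-5p and miR-214-3p, summed to 0.310% to 0.572% and were highest in heart 5, while the whole list was highest in heart 1. miR-133a-3p held at least 88.7% of the muscle sum, miR-126a-5p at least 85.2% of the endothelial sum and miR-451a at least 87.6% of the erythroid sum. In RNA from a whole tissue, more cells of a type and more RNA per cell cannot be told apart.

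The family was a moderate part of the heart profile and was carried almost wholly by miR-29a-3p and miR-29c-3p. Together its members held 0.766% ± 0.0809 of a library (SD, n = 6). The shares in hearts 1 to 6 were 0.714%, 0.729%, 0.732%, 0.912%, 0.810% and 0.701%, so heart 4 was highest and the other hearts lay closer together. miR-486-5p, an abundant miRNA of muscle and red cells, took 14.2% ± 2.29 of a library and was lowest in heart 4, at 11.4%. With miR-486-5p left out of the totals, the family's share was 0.892% ± 0.0771, and heart 4 was still highest, at 1.03%.

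miR-29a-3p was the leading member and ranked 22 among the 979 mature miRNAs by mean CPM. Hearts 1 to 6 had 5578, 5646, 5906, 7256, 6531 and 5549 CPM, a mean of 6077 ± 684. Hearts 4 and 5 were high, and the other 4 lay within a narrow band. It stood between miR-1a-3p and miR-26b-5p in the order of levels. miR-29a-3p was below the muscle miRNA miR-1a-3p (7587 ± 1001 CPM) in 5 of 6 hearts and above miR-26b-5p (4647 ± 458 CPM) in all 6.

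miR-29c-3p, which differs from miR-29a-3p by 1 base, ranked 48. Its levels in hearts 1 to 6 were 1274, 1371, 1193, 1566, 1330 and 1258 CPM, a mean of 1332 ± 130. Heart 4 was again highest on this scale and heart 3 lowest. Its neighbours in the order of levels, miR-127-3p (1413 ± 376 CPM) and miR-142-5p (1251 ± 278 CPM), differed from it by less than their spread over hearts.

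miR-29b-3p ranked 99, with 219, 205, 164, 242, 162 and 153 CPM in hearts 1 to 6 and a mean of 191 ± 36.2. Hearts 1, 2 and 4 were high and hearts 3, 5 and 6 low, with a gap between these sets. Its neighbours miR-107-3p (194 ± 13.8 CPM) and miR-425-5p (183 ± 6.56 CPM) were each higher than miR-29b-3p in 3 of 6 hearts.

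The 5p arms were far rarer. miR-29c-5p had 39.3, 33.0, 32.9, 28.0, 37.0 and 25.9 CPM in hearts 1 to 6, a mean of 32.7 ± 5.10 from 968 reads in all. miR-29a-5p had 27.1, 26.2, 20.1, 26.2, 30.8 and 19.6 CPM, a mean of 25.0 ± 4.33 from 743 reads. Heart 6 was lowest for both, and their ranges overlapped even though miR-29c-5p was the higher within every heart.

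miR-29b-2-5p had 4.20, 3.22, 4.02, 4.03, 4.0 and 3.75 CPM, a mean of 3.87 ± 0.349 from 114 reads. miR-29b-1-5p, counted in the shifted window, had 1.05, 1.81, 1.18, 2.02, 1.50 and 1.43 CPM, a mean of 1.50 ± 0.367 from 44 reads, between 5 and 9 per heart. The ranges of these rarest members did not overlap each other or those of the other 5p arms. miR-29b-1-5p was the only member with a mean under 10 reads, so 6 of 7 entered the test of spread.

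**Figure D1:**
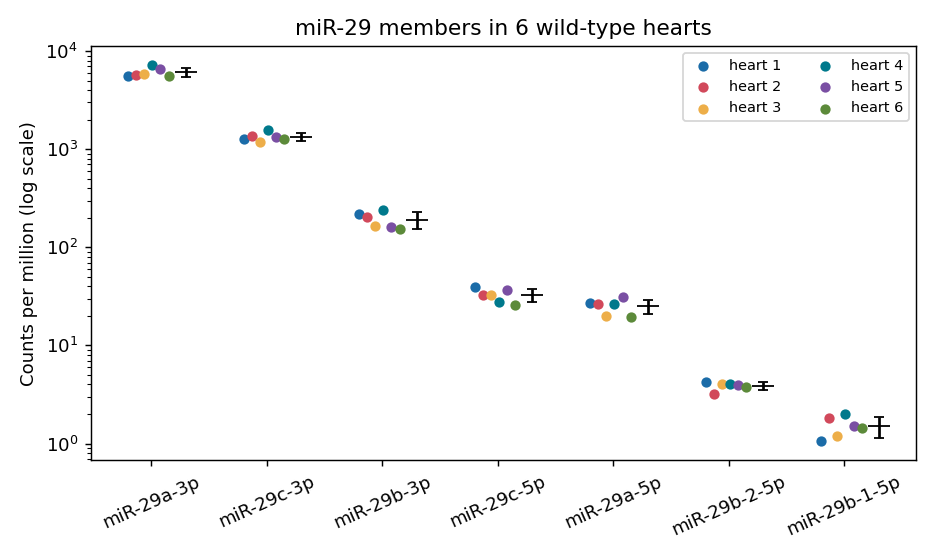
Levels of the 7 mature miR-29 members in CPM on a log axis, ordered by mean. Each coloured point is 1 heart and the black bar is the mean with its SD (n = 6); miR-29a-3p lies near 6077 CPM and miR-29b-1-5p near 1.50 CPM.

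The library protocol ligates adapters to RNA ends, and ligation is known to depend on the sequence of those ends. Ratios and shares that set one miRNA against another are therefore given in reads and do not measure molecules.

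miR-29a-3p made up most of the reads that carry the family seed, while miR-29c led among the 5p arms. Of the 3p reads, miR-29a-3p held 79.9% ± 1.29, miR-29c-3p 17.6% ± 0.985 and miR-29b-3p 2.51% ± 0.420 (SD, n = 6). The order was the same in every heart, and the lowest share of miR-29a-3p was 78.2%. Of the 5p reads, miR-29c-5p held 51.8% ± 3.54, miR-29a-5p 39.6% ± 3.22, miR-29b-2-5p 6.22% ± 0.921 and miR-29b-1-5p 2.42% ± 0.690. The 5p arms together were 0.828% ± 0.126 of all family reads.

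**Figure D2:**
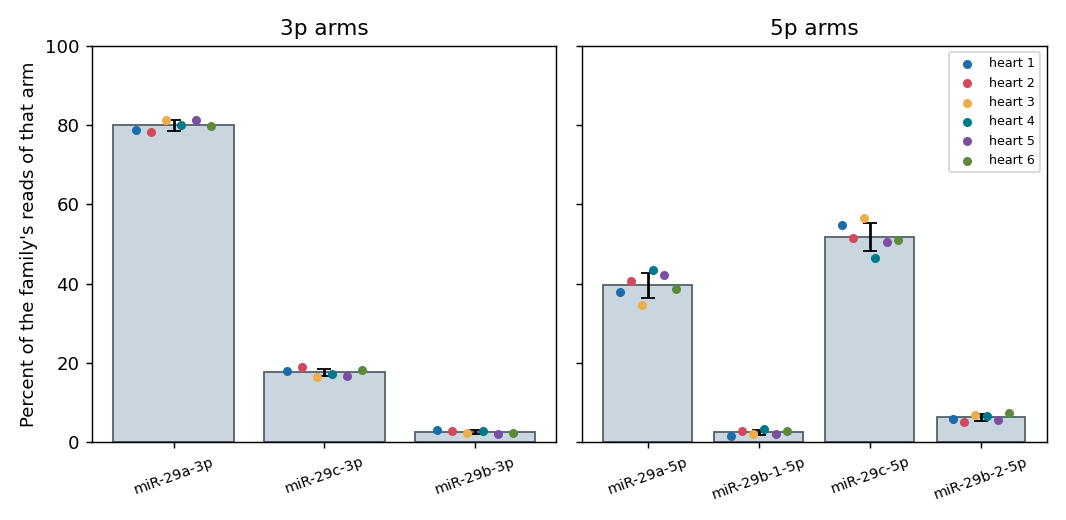
Share of the family's 3p reads (left) and 5p reads (right) held by each member, in percent. Bars are means, error bars the SD and points the 6 hearts; miR-29a-3p holds 79.9% of the 3p reads, while miR-29c-5p, at 51.8%, leads the 5p reads.

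Members were compared within each heart by a quasi-likelihood fit in edgeR that holds the library as a block. Its p-values were adjusted by Benjamini-Hochberg over 220 comparisons, which are 212 hairpins and 8 pairs of members. A call needed both a ratio of 2-fold or more and an adjusted p below 0.05. The p-values rest on a spread that edgeR pooled over all comparisons. Those of the tests over hearts concern only the spread between these samples, which includes library preparation. In all, 6 of the 8 pairs were called, against 190 of the 212 hairpins (89.6%) whose arms were tested in the same fit, so a call alone says little at this depth and the sizes are given.

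miR-29a-3p exceeded miR-29c-3p by a log2 ratio of 2.19 (SE 0.097), which is 4.56-fold (edgeR adjusted p = 4.00e-93). The ratio in hearts 1 to 6 was 4.38, 4.12, 4.95, 4.63, 4.91 and 4.41. It varied little from heart to heart, with a CV of 7.15%. miR-29a-3p exceeded miR-29b-3p by a log2 ratio of 5.01 (SE 0.111), or 32.2-fold (edgeR adjusted p = 7.92e-253). This ratio was 25.5, 27.5, 36.0, 30.0, 40.4 and 36.3 in hearts 1 to 6, lowest in hearts 1 and 2 and highest in heart 5. miR-29c-3p exceeded miR-29b-3p 7.06-fold, a log2 ratio of 2.82 (SE 0.101, edgeR adjusted p = 9.01e-129). Each of the 3 ratios had the same direction in 6 of 6 hearts.

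Because miR-29b-3p is identical at both genes, its reads do not tell the clusters apart, and the 5p arms were used instead. Within the chromosome 6 cluster, miR-29a-5p exceeded miR-29b-1-5p 16.6-fold, a log2 ratio of 4.05 (SE 0.202, edgeR adjusted p = 6.41e-76), with the ratio between 13 and 25.8 over the hearts. Within the chromosome 1 cluster, miR-29c-5p exceeded miR-29b-2-5p 8.40-fold, a log2 ratio of 3.07 (SE 0.164, edgeR adjusted p = 8.39e-68), between 6.90 and 10.3 over the hearts. As counted, the miR-29b arm was the minor one in both clusters, in 6 of 6 hearts each. For the chromosome 6 cluster this rests on the shifted window of miR-29b-1-5p. Whether reads at the RefSeq position were counted there is not known, so its count may be too low.

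miR-29b-1-5p was lower than miR-29b-2-5p by a log2 ratio of -1.36 (SE 0.278, edgeR adjusted p = 1.26e-06), with 44 reads of miR-29b-1-5p against 114 of miR-29b-2-5p and the same direction in 6 of 6 hearts. The value rests on the shifted window of miR-29b-1-5p, and the part of that window in the difference was not tested.

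The clusters themselves were close in 5p reads. The chromosome 6 cluster gave 787 reads and the chromosome 1 cluster 1082, so the chromosome 6 cluster held 42.1% of them (exact binomial 95% interval 39.9% to 44.4%, counting error only, since reads carry no molecular identifiers). In hearts 1 to 6 its share was 39.3%, 43.6%, 36.6%, 46.9%, 44.1% and 41.5%. As counted, the chromosome 6 cluster was the lower one in 6 of 6 hearts, with a log2 ratio of -0.46 (SE 0.123, edgeR adjusted p = 0.000188), a difference under 2-fold and so not called. Its sum includes miR-29b-1-5p from the shifted window, so it may be too low, and the order of the clusters rests on that count. The ratio of miR-29a-5p over miR-29c-5p was 0.690, 0.793, 0.612, 0.937, 0.833 and 0.759 in hearts 1 to 6. Its log2 value was -0.39 (SE 0.125, edgeR adjusted p = 0.00219), likewise under 2-fold.

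The order of Mir29a and Mir29c therefore depended on the arm. The log2 ratio of miR-29a over miR-29c was 2.19 ± 0.10 in 3p reads and -0.39 ± 0.21 in 5p reads (SD over hearts). Their difference, 2.58 ± 0.25, was positive in 6 of 6 hearts (exact sign-flip permutation test, two-sided, p = 0.03125, the smallest that 6 hearts allow). This test and the next were chosen after the values, and so the sign in each heart, were seen. Their p-values are therefore descriptive only, and adjustment over both leaves each at 0.03125.

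The files book miR-29b-3p reads to each gene, although the mature sequences are identical. Mir29b-1 was given 115, 123, 81, 96, 88 and 110 reads in hearts 1 to 6, against 927, 897, 613, 862, 883 and 747 for Mir29b-2. Mir29b-1 thus held 11.1% of the miR-29b-3p reads as booked (613 of 5542, exact binomial 95% interval 10.2% to 11.9%). Of the 5p reads of the same genes it held 27.8% (44 of 158, interval 21.0% to 35.5%). The log2 ratio of Mir29b-1 over Mir29b-2 was -3.0 ± 0.21 in 3p reads and -1.34 ± 0.42 in 5p reads, and the difference of -1.66 ± 0.47 was negative in 6 of 6 hearts (exact sign-flip permutation test, two-sided, p = 0.03125). How reads that match both genes were assigned is not given in the sources used here, so the booked split is a property of the files. The 5p side rests on the shifted window of miR-29b-1-5p. A rule and a window shared by all 6 libraries could give the same sign in each. The p-value is therefore not read as a result about the genes.

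All 3 miR-29 hairpins, with miR-29b summed over its genes, gave far more 3p than 5p reads. Over the 212 hairpins tested, 87 (41%) were called with more 3p reads and 103 (48.6%) with more 5p reads, so a 3p excess was common. The Mir29a hairpin gave 743 5p reads against 178659 3p reads. The 3p excess was 206-, 216-, 294-, 277-, 212- and 283-fold in hearts 1 to 6, so hearts 3, 4 and 6 stood above hearts 1, 2 and 5. The log2 ratio of 5p over 3p was -7.93 (SE 0.129; SD over hearts 0.24), a 3p excess of 243-fold, with an adjusted p too small for edgeR to represent.

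The miR-29b hairpins gave 158 5p reads against 5542 3p reads, with a log2 ratio of -5.12 (SE 0.146; SD 0.24) and a 3p excess of 34.8-fold (edgeR adjusted p = 7.67e-182). The excess was 41.7-, 40.8-, 31.5-, 39.9-, 29.4- and 29.6-fold in hearts 1 to 6. Mir29c gave 968 5p reads against 39169 3p reads, with a log2 ratio of -5.35 (SE 0.118; SD 0.30) and an excess of 40.8-fold (edgeR adjusted p = 9.42e-253). Its excess was 32.4-, 41.5-, 36.3-, 55.9-, 36.0- and 48.6-fold, highest in heart 4. The direction was the same in 6 of 6 hearts for each hairpin, and the exact sign-flip test over hearts, adjusted over the same comparisons, gave 0.0332 for each.

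Among the 87 hairpins with more 3p reads, the excess of Mir29a ranked 22, that of Mir29c 45 and that of miR-29b 49, around a median excess of 43.1-fold. Mir29c and miR-29b thus had a typical 3p excess, and that of Mir29a was larger. As shares, the 5p arm was 0.411% ± 0.0668 of the reads of the Mir29a hairpin, 2.80% ± 0.455 for miR-29b and 2.42% ± 0.465 for Mir29c.

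**Figure D3:**
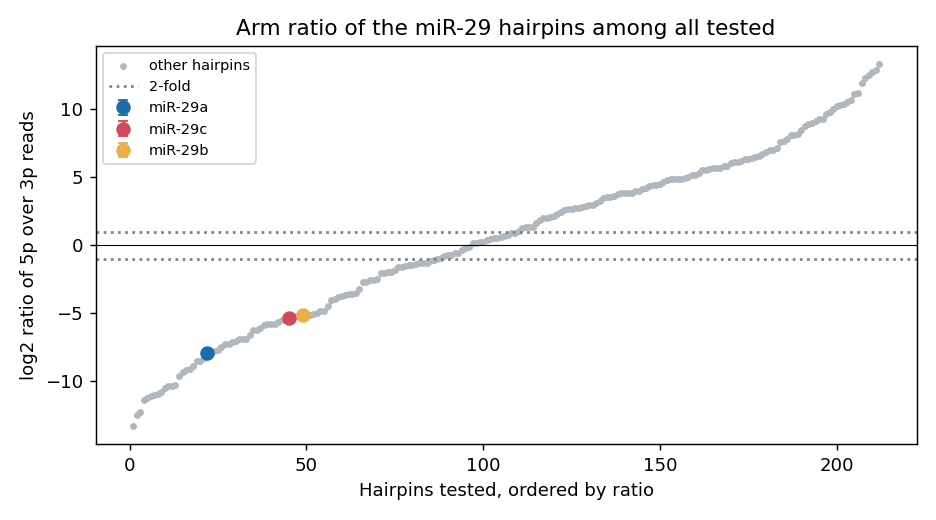
log2 ratio of 5p over 3p reads for the 212 hairpins tested, ordered by ratio, with the miR-29 hairpins in colour (bars, SE, are smaller than the symbols) and dotted lines at a 2-fold ratio. miR-29a lies at -7.93, miR-29c at -5.35 and miR-29b at -5.12.

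The spread of each member over the hearts was set against counting noise with a chi-square test over 346 miRNAs that averaged 10 reads or more. Of these, 249 (72%) varied beyond counting noise at an adjusted p under 0.05, as did 187 of the 207 that averaged 100 reads or more. Among the miR-29 members, 5 of the 6 tested did, a share near that of all miRNAs. Depth sets which differences can be seen, so the coefficient of variation (CV) and the part that counting alone would give are stated for each.

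miR-29a-3p had a CV of 11.3% where counting alone would give 0.586%, with an adjusted p too small to represent. Its highest heart had 1.31 times the level of its lowest. Heart 4 carried much of this, since the CV without it was 7.02%. With TMM-scaled totals, which damp the pull of a few abundant miRNAs, the CV over all hearts was 5.37%, and the call held in each case.

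miR-29c-3p had a CV of 9.75% against 1.25% from counting (chi-square adjusted p = 1.64e-54), and 5.33% without heart 4. miR-29b-3p had the highest CV of the members tested, 19.0% against 3.32% from counting (chi-square adjusted p = 4.73e-33). Its highest heart had 1.58 times the level of its lowest. Of those 207 more abundant miRNAs, 60 had a lower CV than miR-29c-3p, 89 a lower CV than miR-29a-3p and 160 a lower CV than miR-29b-3p, around a median of 12.3%.

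miR-29a-5p had a CV of 17.3% against 9.25% from counting (chi-square adjusted p = 0.00234). miR-29c-5p had a CV of 15.6% against 8.07% (chi-square adjusted p = 0.00192), but without heart 6 its CV was 12.7% and the call was lost (adjusted p = 0.0651). miR-29b-2-5p had a CV of 9.03%, below the 23.2% that counting alone would give (chi-square adjusted p = 0.979). At 19.0 reads per heart, a small biological spread in miR-29b-2-5p was not detectable at this depth. A large one can be called there, since a miRNA with 16.7 reads per heart and a CV of 59.4% was (chi-square adjusted p = 1.2e-05). The CV of miR-29b-2-5p was 4.05% without heart 2.

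**Figure D4:**
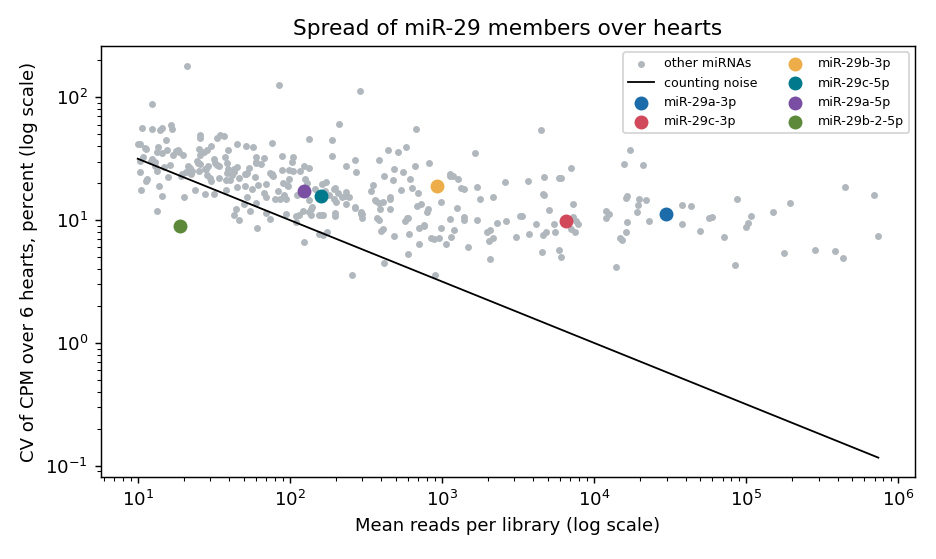
CV of CPM over 6 hearts against mean reads per library, both on log axes, for the 346 miRNAs tested (grey) and the 6 miR-29 members among them (coloured). The line is the CV that counting alone gives; miR-29b-2-5p lies below it and the other members above.

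On plain CPM, heart 4 had the highest level of all 3 members that carry the family seed, and the order depended on the scaling for 2 of them. Heart 4 had 7256 CPM of miR-29a-3p, 1566 CPM of miR-29c-3p and 242 CPM of miR-29b-3p. After TMM scaling it was highest for miR-29a-3p alone, at 6613 CPM. On that scale miR-29c-3p had 1433 CPM in heart 2 and 1427 CPM in heart 4, and miR-29b-3p had 226 CPM in heart 1 and 220.2 CPM in heart 4. With DESeq2 size factors heart 4 was highest for all 3. Heart 4 also had the lowest share of erythroid markers, 0.218% against up to 0.569% in heart 1, and the lowest share of miR-486-5p. It had the most reads of miR-182-5p, 826 against 118 to 320 in the other hearts, and of miR-375-3p, 93 against 2 to 13. The part of any of these in the levels of the 3 members was not tested. Below heart 4, on plain CPM, the 3 members ranked the hearts differently. Heart 5 was next for miR-29a-3p, heart 2 for miR-29c-3p and heart 1 for miR-29b-3p.

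**Figure D5:**
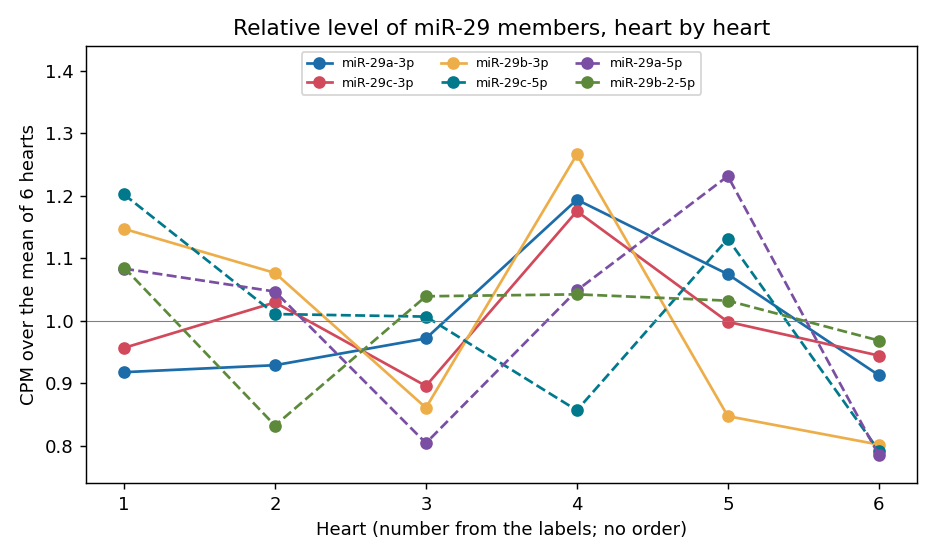
CPM of each of the 6 members tested for spread, divided by its own mean over the 6 hearts; solid lines join 3p arms and dashed lines 5p arms, and the heart numbers have no order. On this unscaled CPM all 3 solid lines peak in heart 4, with miR-29b-3p at 242 CPM, which after TMM scaling holds for miR-29a-3p alone; miR-29c-5p is low there at 28.0 CPM.

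No correlation between members over the hearts passed its test. Of 13 preset pairs, on TMM-scaled log2 CPM (prior count 1), none passed an exact permutation test after adjustment (adjusted p = 0.931 for each Pearson r; 0 pairs had an unadjusted p under 0.05). With 6 hearts the smallest p this test can give is 0.00278. The highest r was that of miR-29b-3p with miR-29c-3p, 0.68 (exact permutation p = 0.201; Spearman's rho 0.37, exact permutation p = 0.497), and 0.84 without the 2 hearts farthest from the median of miR-29b-3p.

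miR-29a-3p with miR-29c-3p had r = 0.30 (exact permutation p = 0.588; rho -0.03, exact permutation p = 1), and r = -0.26 without hearts 4 and 5, so even the sign rests on those hearts. Over all alternatives run, this r ranged from -0.10 to 0.76, and its lowest adjusted p by exact permutation was 0.569. The summed 5p arms of one cluster with those of the other had r = 0.53 (exact permutation p = 0.285; rho 0.60, exact permutation p = 0.242), and 0.79 without hearts 3 and 6. Between the arms of 1 hairpin, r was 0.10 for miR-29a-3p with miR-29a-5p (exact permutation p = 0.875) and -0.35 for miR-29c-3p with miR-29c-5p (exact permutation p = 0.501).

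The summed family had r = -0.58 with the erythroid markers (exact permutation p = 0.244), and 0.37 without hearts 4 and 5. With the fibroblast markers, mostly miR-10b-5p, r was 0.06 (exact permutation p = 0.881), and without miR-10b-5p it was -0.05 (exact permutation p = 0.896), a setting added after the data were seen. By the same measure r with the muscle markers was -0.32 (exact permutation p = 0.540), with the endothelial markers -0.04 (exact p = 0.931) and with the leukocyte markers -0.14 (exact p = 0.811). The signs for muscle, endothelial and leukocyte markers turned positive on CPM without TMM scaling, at 0.49, 0.62 and 0.14. No direction is given for any of the marker lists, the erythroid one included.

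As a description of likeness, the miRNAs that averaged 100 reads or more were ordered by Pearson r over the 6 hearts. The values were TMM-scaled log2 CPM, and no test was run. Of 206 compared with miR-29a-3p, the highest were miR-182-5p (0.95), miR-34c-5p (0.88), miR-23b-3p (0.85), miR-541-5p (0.77) and miR-872-5p (0.75). miR-182-5p varied far more than miR-29a-3p, with a CV of 112% against 11.3% for miR-29a-3p. It had 826 reads in heart 4 and 320 in heart 5, against 118 to 189 in the others. Hearts 4 and 5 were also the highest for miR-29a-3p. miR-29c-3p came only in place 40 of that order. With miR-29c-3p the highest were miR-32-5p (0.91), miR-19a-3p (0.81), miR-28a-5p (0.77), miR-335-5p (0.69) and miR-135a-5p (0.69). All these values share the same 6 libraries and scaling factors.

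By mean level, miR-29a-3p lay below the most abundant of 5 listed miRNAs known to restrain cardiac fibrosis. miR-29a-3p lay above all 5 listed miRNAs known to promote it. The lists were chosen with earlier results of these data known, and miRNAs outside them were not compared. Of 5 restraining miRNAs, 3 had a higher mean than miR-29a-3p. They were miR-133a-3p, which represses connective tissue growth factor, at 89004 ± 4407 CPM, miR-26a-5p at 39577 ± 5413 CPM, and miR-30c-5p, another repressor of connective tissue growth factor, at 10098 ± 824 CPM. miR-24-3p at 3969 ± 590 CPM and miR-101a-3p, which represses Fos, at 3034 ± 216 CPM lay below it.

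Of 5 promoting miRNAs, 0 had a higher mean than miR-29a-3p. The highest was miR-21a-5p, which acts in cardiac fibroblasts on the growth factor inhibitor Spry1. miR-29a-3p had 5578, 5646, 5906, 7256, 6531 and 5549 CPM in hearts 1 to 6, against 5695, 3410, 4490, 5910, 3883 and 2834 CPM of miR-21a-5p. miR-29a-3p was the higher in 5 of 6 hearts, and heart 1 was the exception by a small margin. miR-21a-5p averaged 4370 ± 1238 CPM and was more variable, with a CV of 28.3%. miR-125b-5p had 3357 ± 532 CPM, miR-34a-5p 139 ± 18.2 CPM, miR-155-5p 125 ± 9.57 CPM and miR-433-3p 1.94 ± 0.828 CPM. All 5 restraining miRNAs and all 4 promoting ones that averaged 10 reads or more varied beyond counting noise. Each of them averaged 608 reads or more. Of all miRNAs tested 72% varied, and of those that averaged 100 reads or more 187 of 207 did, so this is common at such depth.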

How the data were processed

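The authors deposited 1 table of raw read counts for each library, with an entry for each arm at each locus and no scaling. The submitters' processing notes name GRCm38 as the build and list edgeR and DESeq, with no version for either. Which aligner and counter were used, and how multiply matching reads were handled, is not given in the sources used here. Per the labels' protocols, libraries were made with a TruSeq small RNA kit from 1 microgram of total RNA. Of 1102 entries, 1026 were sense. Another 38 antisense entries were moved to an annotated hairpin of the other strand that they overlap by at least 10 bases, and the remaining 38 were left out. Entries of one mature name were summed. There were 0 other columns of sample values.

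CPM used the total of each library. Arms and pairs were tested with edgeR 4.0.16 (R 4.3.3), spread by chi-square tests, and single values by exact permutation (scipy 1.17.1). DESeq2 1.42.0 was an alternative. The edgeR test and the chi-square test were checked on simulated data, and the exact permutation and sign-flip tests were not. The members, marker lists and fibrosis lists were chosen with earlier results of these data known. Named miRNAs are all members, both fibrosis lists, the 5 miRNAs most like miR-29a-3p and the 5 most like miR-29c-3p, the neighbours of members in mean level, and miRNAs that share a member's seed. Alternatives changed the library total, scaling, tool, filter, block and prior count, and left out each heart in turn. Counting intervals cover counting error only. Nothing in the labels says whether samples were processed on separate days.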

Additional observations from a re-analysis of the deposited data

Results flagged for a closer look

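Of 49 sets of 6 values checked for a heart that stands apart, 1 was picked out. Chance alone picks about 1 set in 20, so this is no more than chance gives. miR-24-3p, from the list of miRNAs that restrain fibrosis, was highest in heart 5 at 5071 CPM, while the other hearts had 3282 to 3917 CPM. No miR-29 member had such a heart.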

How the results depend on the processing

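Ratios of arms and members kept their direction under every alternative run. Scaling both arm columns by TMM moved the median of all hairpins by -1.09 on the log2 scale. On that scale miR-29a-5p over miR-29c-5p came to -1.48 and the chromosome 6 over the chromosome 1 cluster to -1.56, both then past 2-fold. Most of each move is that common offset, so passing 2-fold there shows no larger difference between these 5p arms. The same scaling called 96 hairpins with more 3p reads and 93 with more 5p reads. Without the library term (no replicate block) the log2 ratios were -7.92 for miR-29a, -5.15 for miR-29b and -5.35 for miR-29c arms, and no call changed. The library block is the pairing within hearts. The replicate numbers pair no samples across groups, since there is 1 group. With totals over sense entries only, or without miR-486-5p, miR-29a-3p averaged 6997 or 7074 CPM, miR-29c-3p 1534 or 1552, miR-29b-2-5p 4.46 or 4.51 and the family 0.882% or 0.892%, and miR-29c-5p averaged 38.2 CPM without miR-486-5p. Leaving out each heart in turn, the CV of miR-29c-5p ranged from 12.7% to 17.5%, and 223 to 245 miRNAs varied. Booked per locus, the log2 arm ratio was -3.78 for Mir29b-1 and -5.42 for Mir29b-2. Correlations were unstable. Without TMM scaling the family had r = 0.49 with muscle, 0.62 with endothelial and 0.14 with leukocyte markers, and with DESeq2 size factors 0.17 with endothelial markers. Over all alternatives run, r of miR-29a-3p with miR-29c-3p reached 0.76. Leaving out each heart, r ranged from -0.10 to 0.63 for miR-29a-3p with miR-29c-3p, -0.54 to 0.40 with miR-29b-3p and -0.090 to 0.45 with miR-29a-5p. It ranged from -0.24 to 0.46 for miR-29a-5p with miR-29b-1-5p, -0.14 to 0.74 for miR-29b-2-5p with miR-29c-5p and -0.59 to 0.066 for miR-29c-3p with miR-29c-5p. For the family it ranged from -0.31 to 0.13 with muscle, -0.13 to 0.66 with fibroblast (-0.054 over all hearts without miR-10b-5p, added after the data were seen), -0.14 to 0.31 with endothelial, -0.84 to 0.20 with erythroid and -0.33 to 0.12 with leukocyte markers. The causes of these changes were not tested. Depth limits miR-29b-1-5p and miR-29b-2-5p, with 44 and 114 reads in all.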
